A study of Mus musculus with 6 samples.

Results

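The 33 genes described here are 31 genes that mark neural cells and 2 genes of a repressor of neural genes, Rest and its corepressor Rcor1. They were read against all 21938 protein-coding genes of the GENCODE vM21 annotation. The list was selected on the number of ATAC-seq regions assigned to neural genes over wide domains, which in an earlier look at these peak lists leaned to the Hyp-Imm library. The counts of ATAC-seq peaks at the 33 genes are therefore a description of these libraries. All 33 genes were found in the annotation, and no filter on low values was applied.

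The cells were mouse embryonic fibroblasts (MEFs) of the strain C57BL/6J, primary cells that stop dividing in culture. For ATAC-seq they were taken from E13.5 embryos, and 1 library stood for each of 4 conditions. Hyp-Imm were MEFs immortalized in 3% oxygen, Norm-Sen were MEFs that had become senescent in 20% oxygen, and Hyp-Pro and Norm-Pro were proliferating MEFs at passage 1 in 3% and in 20% oxygen. For ChIP-seq with an antibody to the transcription factor Tfcp2l1, 1 library came from immortalized MEFs in 3% oxygen (ChIP-Hyp-Imm) and 1 from senescent MEFs in 20% oxygen (ChIP-Norm-Sen). In ATAC-seq the Tn5 transposase inserts sequencing adapters into accessible DNA, so that a peak marks an open region. The Hyp-Imm library held 37770 peaks, Norm-Sen 61408, Hyp-Pro 47523 and Norm-Pro 69122. A background of 0.445, 1.77, 0.956 and 1.24 reads per position, in the same order, was derived from steps in the fold values. Only 24.9%, 22.4%, 19.6% and 30.9% of the peaks lay on whole steps. The value therefore does not describe the local background of most peaks. The ChIP-seq lists held 612 peaks in ChIP-Hyp-Imm and 393 in ChIP-Norm-Sen. The name of each ATAC-seq file disagrees with its sample label. By file name the Hyp-Imm library would be Norm-Sen, the Norm-Sen library would be Hyp-Pro, the Hyp-Pro library would be Norm-Pro, and Norm-Pro would be Hyp-Imm. The libraries are called by their labels, and counts by file name are given with the alternatives. Each condition rests on 1 library, so differences between conditions carry no replicate error and were not tested.

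REST, the RE1-silencing transcription factor, is a zinc finger protein that binds a 21-base element called RE1 near neuronal genes and keeps them silent outside the nervous system. It recruits CoREST (Rcor1) with the demethylase Kdm1a, and the Sin3 corepressors with histone deacetylases. Fibroblasts are a cell type in which neuronal genes are held in this repressed state, and their promoters are typically closed there, while REST and its cofactors are broadly expressed. Many genes of neural transcription factors carry CpG-rich promoters that Polycomb proteins cover in non-neural cells.

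Only 3 of the 33 genes, Rest, Rcor1 and Map2, had a peak in all 4 libraries at the transcription start site (TSS), meaning 1 kb or less from it, and in each of them a stretch just upstream of the TSS was covered by a peak of every library. These stretches are printed because they were the only regions in the 33 genes shared by the 4 libraries. All are from RefSeq GRCm38.p6, read along the gene on the plus strand, with each CpG dinucleotide in capitals. The Rest stretch lies at chr5:77265307-77265421, at positions -184 to -70 from the TSS, the Rcor1 stretch at chr12:111039110-111039326, at positions -241 to -25, and the Map2 stretch at chr1:66175129-66175223, at positions -144 to -50.
Rest: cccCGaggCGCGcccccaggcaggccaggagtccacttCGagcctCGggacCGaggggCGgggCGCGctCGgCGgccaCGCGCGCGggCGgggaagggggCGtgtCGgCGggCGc
Rcor1: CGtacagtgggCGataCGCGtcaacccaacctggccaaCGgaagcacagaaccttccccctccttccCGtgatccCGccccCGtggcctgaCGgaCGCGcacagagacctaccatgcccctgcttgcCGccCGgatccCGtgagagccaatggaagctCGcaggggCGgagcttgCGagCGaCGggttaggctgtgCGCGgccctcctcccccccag
Map2: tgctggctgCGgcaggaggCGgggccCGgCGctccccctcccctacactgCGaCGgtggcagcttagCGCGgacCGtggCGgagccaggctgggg
They hold 20 CpG in 115 bases in Rest, 21 in 217 bases in Rcor1 and 10 in 95 bases in Map2, with a GC content of 83.5%, 68.2% and 76.8%.

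Rcor1, which encodes the scaffold of the CoREST complex, had the strongest peak at the TSS among the 33 genes in each library. The −log10 q of its best peak at the TSS, which MACS2 computes within each library, was 9.76 in Hyp-Imm and 12.2 in Norm-Sen, and 17.8 in Hyp-Pro and 18.1 in Norm-Pro. Since −log10 q depends on depth, each peak was also ranked within its own library: the Rcor1 peak was stronger than 98.6% of the Hyp-Imm peaks, 97.4% of the Norm-Sen peaks, 99.3% of the Hyp-Pro peaks and 99.5% of the Norm-Pro peaks. Its summit lay at positions -99, -141, -147 and -128 from the TSS in the same order of libraries. The promoter of Rcor1 thus ranked in the strongest 3% of peaks in each library, at nearly the same position.

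Rest itself had weaker peaks. The strongest within 1 kb of its TSS had a −log10 q of 4.14 in Hyp-Imm and 3.43 in Norm-Sen, and 5.02 in Hyp-Pro and 5.06 in Norm-Pro. It was stronger than 79.3% of the library's peaks in Hyp-Imm and 43.8% in Norm-Sen, and 75.4% in Hyp-Pro and 80.6% in Norm-Pro. Norm-Sen was lowest by both measures. Around the TSS of Rest the peaks formed 3 separate regions, with summits about 0.1 to 0.2 kb before the start, 0.4 to 0.5 kb after it and 0.9 to 1.0 kb after it. The first was present in all 4 libraries, the second was not called in Hyp-Imm and the third was not called in Norm-Sen. Over the gene and 5 kb on each side, Rest had 2 peaks in Hyp-Imm and 3 in Norm-Sen, and 3 in Hyp-Pro and 6 in Norm-Pro, where 2 lay in coding exons 16401 and 16965 bp from the TSS.

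**Figure D1:**
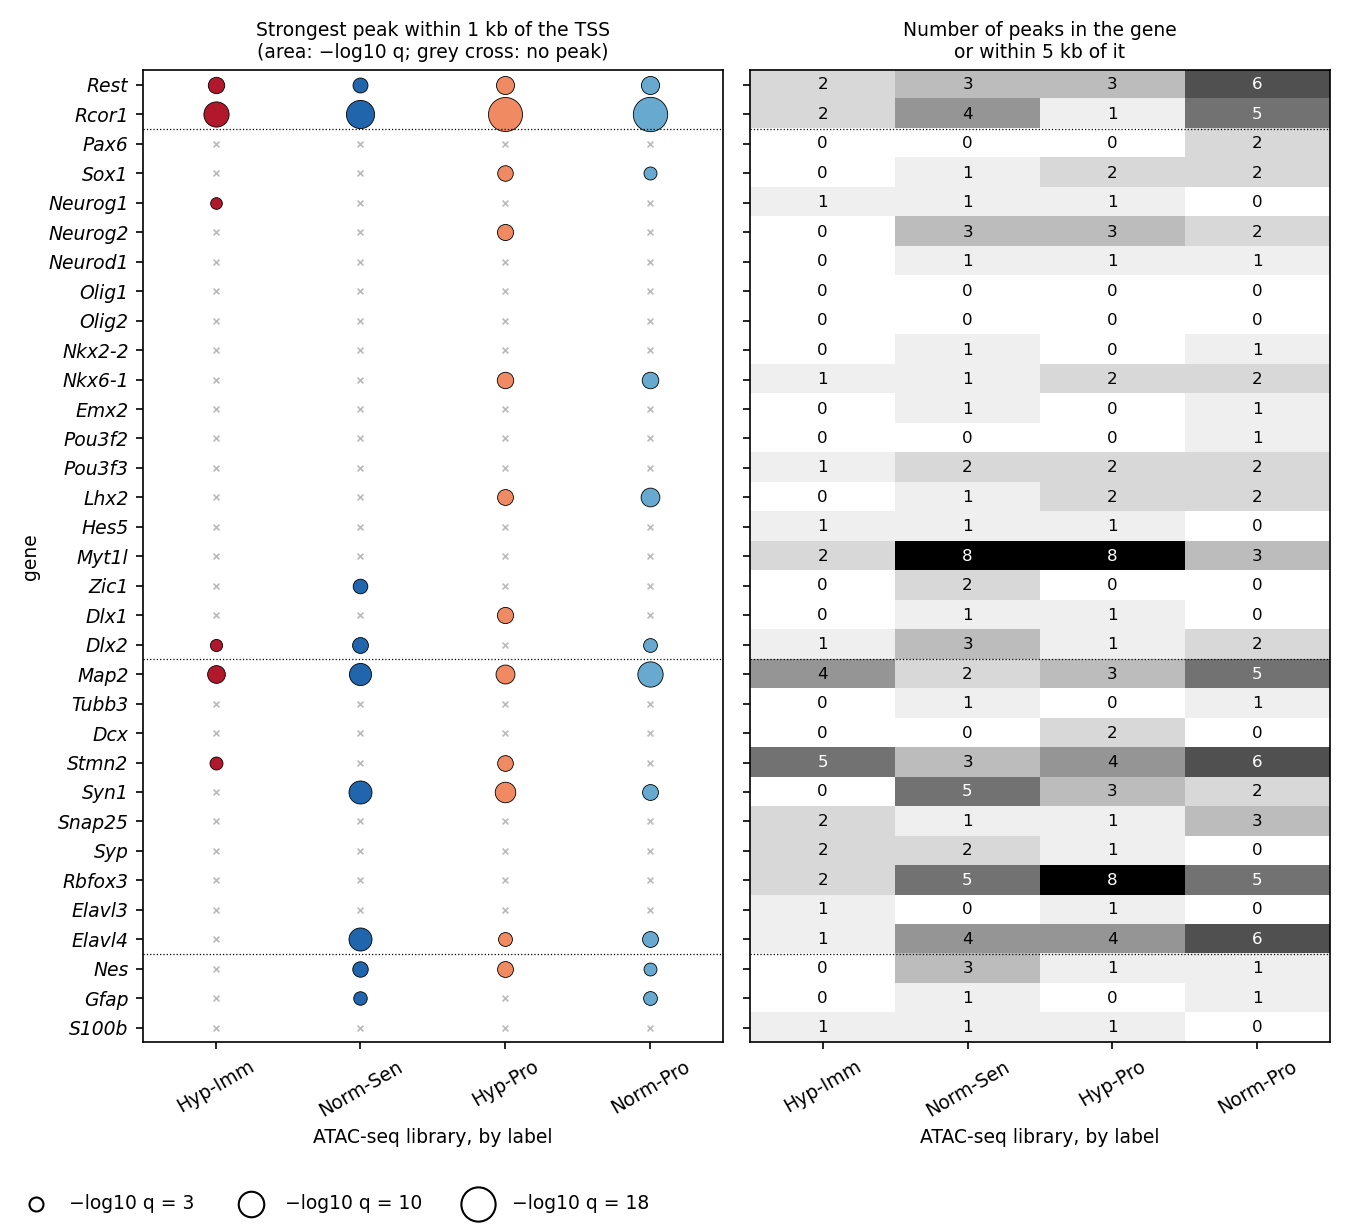
Left, the strongest ATAC-seq peak within 1 kb of the TSS of each of the 33 genes in the 4 libraries, with the circle area proportional to −log10 q and a grey cross where no peak was called; right, the number of peaks in the gene or within 5 kb of it. Dotted lines separate the REST complex, neural transcription factors, neuronal genes, and progenitor and glial genes; Rest, Rcor1 and Map2 have a circle in all 4 libraries, while Olig1 and Olig2 are empty.

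Across the 33 genes, 6 had a peak at the TSS in Hyp-Imm and 9 in Norm-Sen, and 12 in Hyp-Pro and 11 in Norm-Pro. These are 18.2% of the 33 genes in Hyp-Imm and 27.3% in Norm-Sen, and 36.4% in Hyp-Pro and 33.3% in Norm-Pro, beside 30.9%, 47.6%, 44.2% and 49.3% of all protein-coding genes. The share among the 33 genes was below the background in each library. Counting the TSS of any protein-coding transcript of a gene, 7, 14, 12 and 11 of the 33 had a peak (21.2%, 42.4%, 36.4% and 33.3%), beside 34.4%, 51.9%, 48.4% and 53.7% of all genes. No peak at the TSS in any library was found for 17 genes (51.5%), against 38.6% of all genes, and a peak in all 4 for 3 genes (9.09%), against 23.2% of all genes. With the 37770 strongest peaks of each library the counts were 6 in Hyp-Imm and 7 in Norm-Sen, and 11 in Hyp-Pro and 7 in Norm-Pro, beside a background of 30.9%, 41.1%, 40.7% and 43.6%. The low count in Hyp-Imm was thus within 1 gene of those in Norm-Sen and Norm-Pro once the number of peaks was the same. It stayed below the 11 of Hyp-Pro. The lowest −log10 q kept was 1.31 in Hyp-Imm and 3.33 in Norm-Sen, and 3.04 in Hyp-Pro and 3.15 in Norm-Pro. The equal sets therefore differ in stringency, with the Hyp-Imm set reaching the weakest peaks.

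Over the whole gene and 5 kb on each side, 16 of the 33 genes had a peak in Hyp-Imm and 27 in Norm-Sen, and 24 in Hyp-Pro and 23 in Norm-Pro. These are 48.5%, 81.8%, 72.7% and 69.7% of the 33, beside 56.3%, 71.5%, 67.3% and 73.4% of all genes. Here the 33 genes lay below the background in Hyp-Imm and Norm-Pro and above it in Norm-Sen and Hyp-Pro. The 33 windows held 29 peaks in Hyp-Imm and 62 in Norm-Sen, and 57 in Hyp-Pro and 62 in Norm-Pro, or 1.35, 2.88, 2.65 and 2.88 peaks per 100 kb, against 1.85, 3.16, 2.54 and 3.44 per 100 kb for all genes. With an equal number of peaks the densities were 1.35, 1.77, 2.00 and 1.26 per 100 kb for the 33 genes, against 1.85, 2.01, 2.03 and 2.097 for all genes, and 16, 22, 23 and 18 of the 33 genes had a peak, beside 56.3%, 61.7%, 62.4% and 63.7% of all genes.

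A −log10 q under 5 was found in 28 of 29 peaks in Hyp-Imm, 48 of 62 in Norm-Sen, 46 of 57 in Hyp-Pro and 51 of 62 in Norm-Pro. These are 96.6%, 77.4%, 80.7% and 82.3% of the members' peaks, beside 89%, 77.9%, 75.3% and 80.2% of all peaks, and the shares lay within 8 percentage points of each other in each library. The median peak in the 33 windows was stronger than 58.1% of the library's peaks in Hyp-Imm and 48.9% in Norm-Sen, and 47.0% in Hyp-Pro and 33.5% in Norm-Pro, against 54.4%, 52.4%, 54.9% and 55.3% for peaks in the windows of all genes. The members' peaks ranked lowest in Norm-Pro. Merged across libraries they formed 172 regions, of which 147 (85.5%) were called in 1 library, 14 in 2, 8 in 3 and 3 (1.74%) in all 4. Over the windows of all genes 80.6% of the regions were in 1 library and 5.11% in all 4. Of the 147 regions, 19 were in Hyp-Imm and 44 in Norm-Sen, and 38 in Hyp-Pro and 46 in Norm-Pro. These are 11%, 25.6%, 22.1% and 26.7% of the 172 regions, beside 14%, 23.4%, 16.6% and 26.5% over all genes. Hyp-Imm had the lowest share and Norm-Pro the highest in both.

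**Figure D2:**
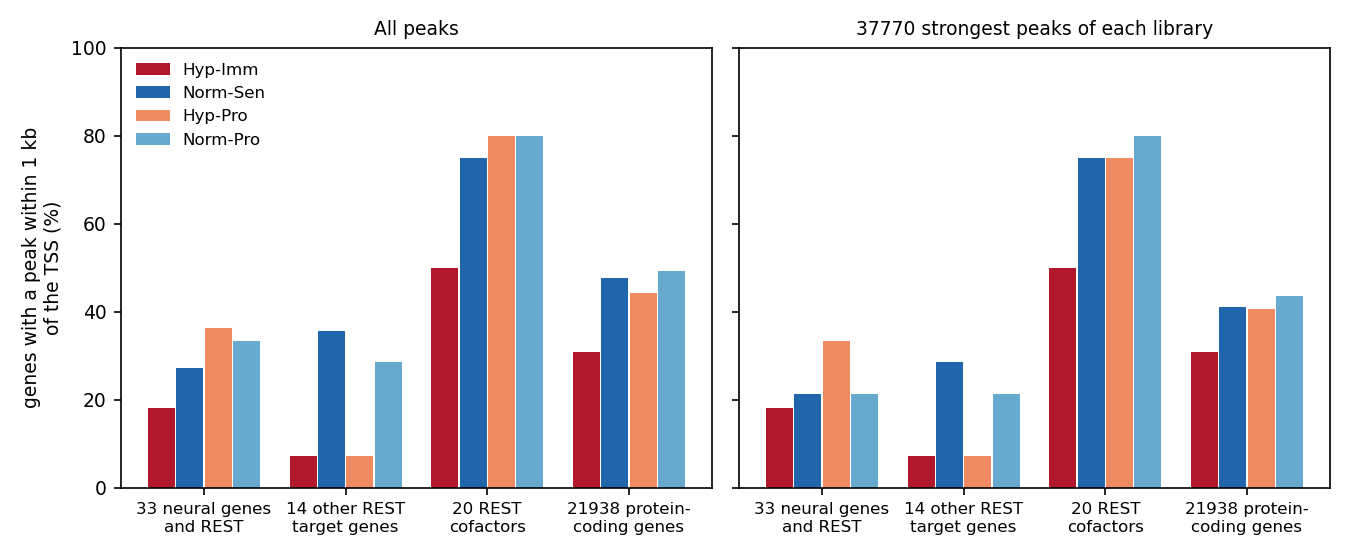
Share of genes with an ATAC-seq peak within 1 kb of the TSS in each library, for the 33 neural genes and REST, 14 other REST target genes, 20 REST cofactors and all 21938 protein-coding genes. Left, all peaks; right, the 37770 strongest peaks of each library. Bars of the 33 genes reach 18.2% to 36.4% and those of the REST cofactors 50% to 80%.

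Of the 18 neural transcription factors, 2 had a peak at the TSS in Hyp-Imm and 2 in Norm-Sen, and 5 in Hyp-Pro and 4 in Norm-Pro, with none in all 4 libraries. These are 11.1%, 11.1%, 27.8% and 22.2% of the factors, beside 30.9%, 47.6%, 44.2% and 49.3% of all genes. Counting the TSS of any transcript of the gene, Norm-Sen had 6 (33.3%, beside 51.9% of all genes) and the other libraries the same counts. Olig1 and Olig2, the basic helix-loop-helix factors of the oligodendrocyte lineage, which neighbour each other on chromosome 16, had no peak in the gene or within 5 kb in any library. Pax6, the paired-box factor of eye and neural progenitors, had 2 peaks in introns in Norm-Pro, with a −log10 q of 3.22 and 2.26, and none in Hyp-Imm, Norm-Sen or Hyp-Pro. Pou3f2, a POU factor of neural progenitors, had 1 peak downstream of the gene in Norm-Pro. For these 4 genes no peak was thus called in Hyp-Imm, Norm-Sen or Hyp-Pro. Of the 18 genes, 6 had any peak in the gene or within 5 kb in Hyp-Imm and 14 in Norm-Sen, and 11 in Hyp-Pro and 12 in Norm-Pro. These are 33.3%, 77.8%, 61.1% and 66.7% of the factors, beside 56.3%, 71.5%, 67.3% and 73.4% of all genes, so that only the share in Norm-Sen was above that of all genes. Pou3f3, a POU factor of the same class as Pou3f2, had peaks in the gene or within 5 kb in all 4 libraries and none at the TSS. Its Norm-Sen peak with a −log10 q of 3.73 lay 1064 bp from the TSS, and its Norm-Pro peak with 5.26 in the coding exon was stronger than 81.9% of the library's peaks. Nkx2-2, a factor of ventral neural tube progenitors and oligodendrocyte precursors, had 1 peak downstream of the gene in Norm-Sen (3.41) and 1 in an intron in Norm-Pro (3.098).

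Sox1, Nkx6-1 and Lhx2 had peaks within 1 kb of the TSS in both proliferating libraries alone, at different positions in each. The Sox1 peaks were centred at -279 and 545 bp from the TSS in Hyp-Pro and at 357 bp in Norm-Pro. Those of Nkx6-1 had their summits at 874 bp in Hyp-Pro and -484 bp in Norm-Pro. Those of Lhx2 were centred at -73 bp in Hyp-Pro and at 167 and 340 bp in Norm-Pro. For none of these genes did the Hyp-Pro and Norm-Pro peaks overlap. Sox1, a marker of the neural plate, had a −log10 q of 3.72 in Hyp-Pro and 2.60 in Norm-Pro and no peak at the TSS in Hyp-Imm or Norm-Sen. Nkx6-1, a factor of ventral neural tube progenitors, had 4.15 in Hyp-Pro and 4.22 in Norm-Pro, and Lhx2, a LIM factor of the forebrain and eye, had 3.87 in Hyp-Pro and 5.41 in Norm-Pro, both with none in Hyp-Imm or Norm-Sen. With an equal number of peaks Sox1 lost its peak in Norm-Pro, while Nkx6-1 and Lhx2 kept both. For Nkx6-1 a peak in Hyp-Imm with a −log10 q of 3.33 lay 1030 bp from the TSS, just outside the window, and overlapped the Hyp-Pro peak.

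The proneural genes differed from each other. Neurog1 had a peak at the TSS in Hyp-Imm, in its coding exon, with a −log10 q of 2.096 that exceeded only 6.85% of the peaks of that library. Neurog2 had peaks in Hyp-Pro with a −log10 q of 4.00 and 2.75. A further region of Neurog2 in its coding exon, with summits 1125, 1188 and 1066 bp after the TSS, was open with a −log10 q of 5.09 in Norm-Sen, with 4.22 in Hyp-Pro and 5.31 in Norm-Pro, and was not called in Hyp-Imm. Its peaks lay 1047 bp from the TSS in Norm-Sen and 1016 bp in Norm-Pro, just outside the window. Neurod1, which acts after the neurogenins in neuronal differentiation, had no peak at the TSS but 1 in its coding exon, about 2.4 kb after the start, in Norm-Sen (3.33) and in Norm-Pro (5.30).

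Of the homeobox genes Dlx1 and Dlx2, which pattern forebrain interneurons and neighbour each other on chromosome 2, Dlx2 had a peak in its coding exon within 1 kb of the TSS in Hyp-Imm (−log10 q 2.28), Norm-Sen (3.86) and Norm-Pro (2.92), and Dlx1 had one in Hyp-Pro (4.03). Downstream of Dlx2 a region about 3.6 kb after the TSS was open with a −log10 q of 9.13 in Norm-Sen, with 2.91 in Hyp-Pro and 4.90 in Norm-Pro, and was not called in Hyp-Imm. The Norm-Sen peak there was stronger than 94.6% of the library's peaks. Zic1, a zinc finger factor of the dorsal neural tube, had a peak at the TSS in Norm-Sen (3.29), whose edge lay 925 bp from the TSS, just inside the window. Emx2, a factor of the dorsal forebrain, had a Norm-Sen peak of 5.85 that lay 1032 bp from the TSS, just outside. Peaks near Hes5, a Notch target that keeps progenitors undifferentiated, were within 1 kb of the TSS of its neighbour Pank4 in Hyp-Imm, Norm-Sen and Hyp-Pro, so none can be assigned to Hes5 alone. Myt1l, a zinc finger factor that represses non-neuronal genes in neurons, had 2 peaks in Hyp-Imm and 8 in Norm-Sen, and 8 in Hyp-Pro and 3 in Norm-Pro over a gene of 394830 bp, none of them at the TSS.

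Of the 10 neuronal genes, 2 had a peak at the TSS in Hyp-Imm and 3 in Norm-Sen, and 4 in Hyp-Pro and 3 in Norm-Pro. These are 20%, 30%, 40% and 30%, beside 30.9%, 47.6%, 44.2% and 49.3% of all genes, and the share in Hyp-Pro was within 1 gene of the background. Map2, the microtubule-associated protein of dendrites, was the exception with a peak in each library, the strongest of which had a −log10 q of 4.84 in Hyp-Imm and 7.51 in Norm-Sen, and 5.51 in Hyp-Pro and 9.81 in Norm-Pro. Within the libraries these peaks were stronger than 85.8%, 91.7%, 79.4% and 95.4% of peaks. The stretch common to the 4 libraries, printed above, was part of peaks with 3.15, 7.51, 5.41 and 9.81 in the same order. A further peak 0.2 to 0.3 kb after the TSS was present in Hyp-Imm, Hyp-Pro and Norm-Pro and was not called in Norm-Sen.

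Syn1 and Elavl4 each had a promoter peak in Norm-Sen, Hyp-Pro and Norm-Pro and none in Hyp-Imm. Syn1 encodes synapsin I, a protein of synaptic vesicles, and its promoter peak had a −log10 q of 8.14 in Norm-Sen, with 6.48 in Hyp-Pro and 3.86 in Norm-Pro. Within the libraries these peaks were stronger than 92.9%, 86.6% and 58.9% of peaks. Elavl4, which encodes a neuronal RNA-binding protein of the Hu family, had 8.15 in Norm-Sen, with 2.96 in Hyp-Pro and 3.86 in Norm-Pro, stronger than 92.9%, 18.4% and 58.9% of peaks. Both genes had their highest rank in Norm-Sen. The Norm-Pro peak of Elavl4 did not overlap its Norm-Sen or Hyp-Pro peak. With an equal number of peaks Elavl4 lost its peak in Hyp-Pro, while Syn1 kept a peak in all 3 libraries. Further Syn1 peaks in an intron, in Norm-Sen, Hyp-Pro and Norm-Pro, lie at the TSS of Timp1, a metalloproteinase inhibitor gene that starts inside Syn1, and cannot be told apart from it.

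Stmn2, the neuronal stathmin of growing axons, had peaks at the TSS in Hyp-Imm (−log10 q 2.59) and Hyp-Pro (3.80), in an intron. A neighbouring peak in Norm-Sen (4.78) lay 1059 bp from the TSS. The remaining neuronal genes, Tubb3 (a neuronal tubulin), Dcx (doublecortin of migrating neurons), Snap25 and Syp (synaptic membrane proteins), Rbfox3 (the nuclear antigen NeuN) and Elavl3, had no peak at the TSS in any library. Their peaks elsewhere include those of Tubb3 in Norm-Sen and Norm-Pro, at the TSS of Def8, and those of Syp in Hyp-Imm, at the TSS of Prickle3. Rbfox3, with a gene of 421836 bp, had 2 peaks in Hyp-Imm and 5 in Norm-Sen, and 8 in Hyp-Pro and 5 in Norm-Pro, all in introns.

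**Figure D3:**
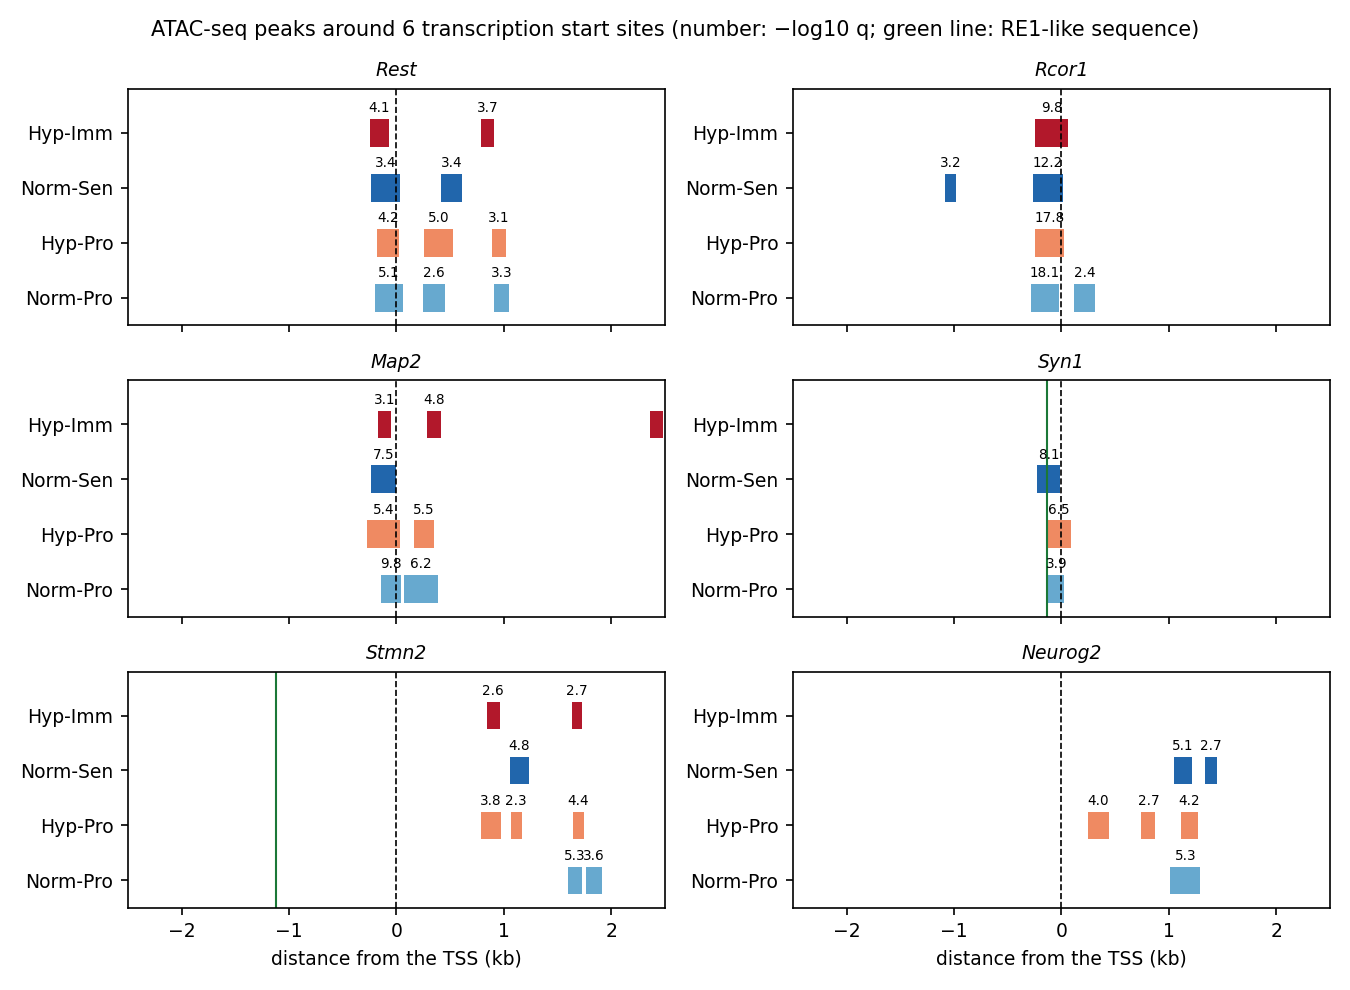
ATAC-seq peaks of the 4 libraries within 2.5 kb of the TSS of Rest, Rcor1, Map2, Syn1, Stmn2 and Neurog2, drawn along the direction of transcription. Bars span the peaks, numbers are −log10 q, the dashed line is the TSS and the green line an RE1-like sequence, which lies inside the Syn1 peak of Norm-Sen and at position -1120 from the TSS of Stmn2, away from its peaks.

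The 3 progenitor and glial genes had weak peaks. Nes, the intermediate filament nestin of neural progenitors, had a peak at the TSS in Norm-Sen (−log10 q 3.68), Hyp-Pro (3.87) and Norm-Pro (2.56), each at a different position, and none in Hyp-Imm. Gfap, the filament protein of astrocytes, had one in Norm-Sen (2.80) and Norm-Pro (2.93), and neither was among the 37770 strongest. S100b, a calcium-binding protein of glia, had no peak at the TSS and 1 peak downstream in Hyp-Imm, Norm-Sen and Hyp-Pro.

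The comparison of Hyp-Imm with Norm-Sen addresses which of these promoters differed between immortalized and senescent MEFs. Peaks at the TSS in Hyp-Imm and not in Norm-Sen were found for 2 of the 33 genes, Neurog1 and Stmn2 (6.06%), beside 4.23% of all genes. Peaks in Norm-Sen and not in Hyp-Imm were found for 5, Nes, Syn1, Gfap, Elavl4 and Zic1 (15.2%), beside 20.9% of all genes. In both libraries 4 genes had a peak, Rest, Rcor1, Map2 and Dlx2 (12.1%), against 26.6% of all genes. The Dlx2 peak of Hyp-Imm (−log10 q 2.28) did not overlap that of Norm-Sen (3.86). With an equal number of peaks the 2 genes of Hyp-Imm were the same, beside 5.99% of all genes, and Nes, Syn1 and Elavl4 were left for Norm-Sen, beside 16.2%. Both peaks that Hyp-Imm had alone were weak, at a −log10 q of 2.096 and 2.59, and neither reached a −log10 q of 3.

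Between senescent and proliferating MEFs in 20% oxygen, Zic1 had a peak at the TSS in Norm-Sen and not in Norm-Pro (3.03%, beside 7.19% of all genes). Sox1, Nkx6-1 and Lhx2 had one in Norm-Pro and not in Norm-Sen (9.09%, beside 8.9%), and 8 genes had one in both. Between immortalized and proliferating MEFs in 3% oxygen, Neurog1 and Dlx2 had a peak in Hyp-Imm and not in Hyp-Pro (6.06%, beside 5.07%), and 8 genes, Sox1, Neurog2, Nes, Nkx6-1, Lhx2, Syn1, Elavl4 and Dlx1, had one in Hyp-Pro and not in Hyp-Imm (24.2%, beside 18.4%). Sox1, Nkx6-1 and Lhx2 thus had a peak within this window in the proliferating library of each oxygen level alone. The Hyp-Pro and Norm-Pro peaks of each gene did not overlap. For Nkx6-1 the region of the Hyp-Pro peak was also called in Hyp-Imm, where its edge fell outside the window, and Lhx2 had a Norm-Sen peak at the TSS of another of its transcripts, centred 12305 bp after the start of the gene record. Between the proliferating libraries, Neurog2, Stmn2 and Dlx1 had a peak in Hyp-Pro and not in Norm-Pro (9.09%, beside 5.96%), and Gfap and Dlx2 had one in Norm-Pro and not in Hyp-Pro (6.06%, beside 11%). With an equal number of peaks, Nes and Dlx2 were left for Norm-Sen (6.06%, beside 6.62%) and Nkx6-1 and Lhx2 for Norm-Pro (6.06%, beside 9.13%), Neurog1 and Dlx2 for Hyp-Imm (6.06%, beside 6.03%) and 7 genes for Hyp-Pro (21.2%, beside 15.9%), and 5 genes for Hyp-Pro (15.2%, beside 6.9%) and Elavl4 for Norm-Pro (3.03%, beside 9.76%). With all peaks, the share of the 33 genes with a peak in 1 library of a pair alone differed from that of all genes by under 6 percentage points, which is 1 or 2 genes of the 33.

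These promoters were CpG-rich more often than those of all genes. The observed over expected CpG ratio within 1 kb of the TSS was at least 0.6 in 20 of the 33 genes (60.6%), against 33.9% of all genes. Of these 20, a peak at the TSS was found for 4 in Hyp-Imm (20%) and 7 in Norm-Sen (35%), and 8 in Hyp-Pro (40%) and 8 in Norm-Pro (40%). Among all genes with CpG-rich promoters the shares were 58.7% in Hyp-Imm and 83.2% in Norm-Sen, and 80.1% in Hyp-Pro and 85.6% in Norm-Pro. Of the 14 neural transcription factors among the 20 the counts were 2, 2, 3 and 3. Among CpG-rich promoters the gap was thus wider than over all genes, from 38.7 to 48.2 percentage points against 7.8 to 20.3 points. The ratio reached 0.936 in the 33 genes and 1.19 in all genes, so the CpG-rich groups were not matched above the cut. The other 13 genes had a ratio below 0.6. Of these, 2, 2, 4 and 3 had a peak (15.4%, 15.4%, 30.8% and 23.1%), in the same order. Of all CpG-poor genes 16.5%, 29.3%, 25.8% and 30.6% had one, so the share in Hyp-Pro was above the background.

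The cofactors of REST were open at a higher rate than the 33 genes. Of 20 cofactors, 10 had a peak at the TSS in Hyp-Imm (50%) and 15 in Norm-Sen (75%), and 16 in Hyp-Pro (80%) and 16 in Norm-Pro (80%). The shares of all genes were 30.9%, 47.6%, 44.2% and 49.3% in the same order. In all 4 libraries 10 cofactors had a peak at the TSS (50%), against 23.2% of all genes. These included the histone deacetylases Hdac1 and Hdac2, the demethylase Kdm1a, the methyltransferase Ehmt1, the chromatin remodeller Smarca4, the phosphatases Ctdsp1 and Ctdspl, Rcor3 and Btrc, which encodes a ubiquitin ligase subunit that targets REST for degradation. Hdac1 had a −log10 q of 7.98 in Hyp-Imm and 7.95 in Norm-Sen, and 14.02 in Hyp-Pro and 16.3 in Norm-Pro. Kdm1a had 3.11, 7.80, 7.27 and 12.01 in the same order. With the TSS of any transcript 15, 18, 19 and 20 of the 20 cofactors had a peak, beside 34.4%, 51.9%, 48.4% and 53.7% of all genes. Of the cofactors 14 had CpG-rich promoters (70%). Among these, 57.1%, 92.9%, 85.7% and 92.9% had a peak at the TSS, beside 58.7%, 83.2%, 80.1% and 85.6% of all genes with such promoters. Among the 6 CpG-poor cofactors the shares were 33.3%, 33.3%, 66.7% and 50%, beside 16.5%, 29.3%, 25.8% and 30.6% of all CpG-poor genes. For the deubiquitinase gene Usp7 the start of the gene record lies away from the start of other protein-coding transcripts, and a peak was called in all 4 libraries at the TSS of one of these.

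Another 14 genes known as REST targets, most of them of synapses and secretory granules, were counted in the same way. A peak at the TSS was found for 1 in Hyp-Imm (7.14%) and 5 in Norm-Sen (35.7%), and 1 in Hyp-Pro (7.14%) and 4 in Norm-Pro (28.6%), beside 30.9%, 47.6%, 44.2% and 49.3% of all genes. With the TSS of any transcript the counts were 3, 9, 5 and 6 (21.4%, 64.3%, 35.7% and 42.9%), beside 34.4%, 51.9%, 48.4% and 53.7% of all genes, and the share in Norm-Sen was then above the background. Bdnf, a neurotrophin gene with many alternative first exons, and Celsr3, an adhesion receptor gene of neurons, had a peak in all 4 libraries by this count. Scg2, a secretogranin of dense-core granules, had a −log10 q of 4.84 in Hyp-Imm, 4.76 in Norm-Sen and 6.30 in Norm-Pro and no peak in Hyp-Pro. Stx1a, a syntaxin of the presynaptic membrane, had 3.67 in Norm-Sen, with 6.42 in Hyp-Pro and 4.35 in Norm-Pro and no peak in Hyp-Imm. Gria2 and Scg3 had one in Norm-Sen alone, at 5.68 and 5.54, as did Grin1 at 2.80.

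RE1-like sequences were searched in the whole genome on both strands with the RE1 consensus, allowing 3 mismatches over its 19 defined bases, which gave 1296 sites. The consensus can be read from the exact match printed for Nes, in which the lower-case bases are the free positions between both arms of the element. Such a match is a description of the sequence and not a bound site. Within 5 kb of the TSS a match was found for 7 of the 33 genes (21.2%), against 1.34% of all genes, and within 1 kb for 3 (9.09%), Syn1, Snap25 and Syp, against 0.565%. Of the 10 neuronal genes 6 had one within 5 kb, of the 18 neural transcription factors 1, Neurod1, of the 14 other REST targets 7 and of the 20 cofactors none. The REST targets and neuronal genes are known partly through this element, so these shares are not independent of it. The matches nearest to a TSS and the exact match are printed along the strand that carries them, with bases equal to the consensus in capitals. They lie at chrX:20921130-20921150 on the minus strand (Syn1, position -136 from the TSS), chr3:8508230-8508250 on the plus strand (Stmn2, position -1120), chr2:136714338-136714358 on the plus strand (Snap25, in an intron 895 bp after the TSS), chrX:7638737-7638757 on the plus strand (Syp, in a coding exon 276 bp after the TSS) and chr3:87993661-87993681 on the plus strand (Nes, 22593 bp after the TSS and downstream of the gene).
Syn1: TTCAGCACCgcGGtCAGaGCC
Stmn2: TTCAGCACCacGGACAGCGCt
Snap25: TTCAGCACCgcGGACAGCGat
Syp: TcCAGCACCgtGGACAGaGCC
Nes: TTCAGCACCagGGACAGCGCC
The Nes match is exact, and the Stmn2 match has 1 mismatch and the Syn1, Snap25 and Syp matches 2 each.

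Of these 5 sites only that of Syn1 lay in an ATAC-seq peak. The Norm-Sen peak held all 21 bases of the site and the Hyp-Pro peak 13, while the Norm-Pro peak ended 6 bp short of it and Hyp-Imm had no peak at this promoter. The Norm-Sen peak, chrX:20921014-20921234, is printed along the minus strand on which Syn1 is transcribed, at positions -230 to -10 from the TSS, with the RE1-like site in capitals.
Syn1 promoter: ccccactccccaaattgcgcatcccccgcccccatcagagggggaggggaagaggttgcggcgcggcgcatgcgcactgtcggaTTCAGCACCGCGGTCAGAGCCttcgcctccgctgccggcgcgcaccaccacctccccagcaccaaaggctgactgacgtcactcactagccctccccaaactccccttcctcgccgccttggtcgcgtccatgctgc
A match in the coding exon of Neurod1, with 3 mismatches, lay in the Norm-Pro peak and 3 bp from the Norm-Sen peak. The matches at Stmn2, Snap25, Syp and Nes were outside peaks in all 4 libraries, with the nearest peak 1894 bp or more away. Of all 1296 sites of the genome, 1.23% lay in a peak in Hyp-Imm and 4.32% in Norm-Sen, and 2.16% in Hyp-Pro and 3.94% in Norm-Pro, and 8.49% in any library. Of all 21-base windows of the genome 0.203%, 0.374%, 0.293% and 0.419% overlapped a peak in the same order, and 1.01% in any library, so that the sites lay in peaks several times more often than windows at large.

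**Figure D4:**
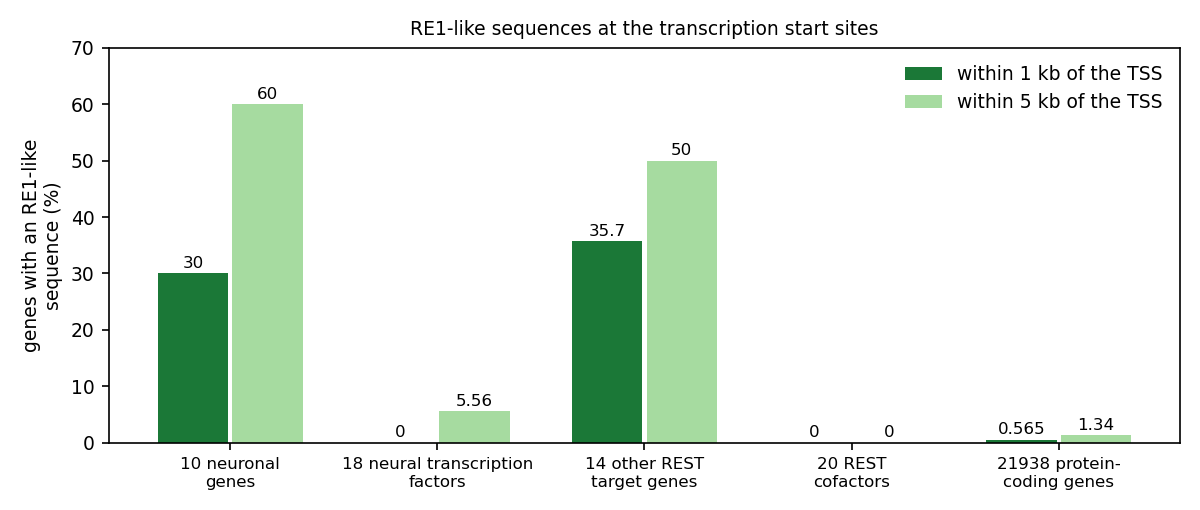
Share of genes with an RE1-like sequence within 1 kb and within 5 kb of the TSS. The 10 neuronal genes (30% and 60%) and 14 other REST target genes (35.7% and 50%) stand above the 18 neural transcription factors (0% and 5.56%), the 20 REST cofactors (0% in both windows) and all 21938 protein-coding genes (0.565% and 1.34%).

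Tfcp2l1 ChIP-seq peaks near these genes were about as frequent as near all genes. Within 200 kb of the TSS 3 of the 33 genes had a peak in ChIP-Hyp-Imm, Rcor1, Neurod1 and Myt1l (9.09%), beside 11.8% of all genes, and 2 had a peak in ChIP-Norm-Sen, Rcor1 and Hes5 (6.06%), beside 8.13%. Rest had none in either. The Rcor1 peak was shared by both lists, with a fold over the local background of 8.36 in ChIP-Hyp-Imm and 13.6 in ChIP-Norm-Sen. It lay on a tRNA gene 194 kb upstream of Rcor1, with the TSS of 4 other genes between, and overlapped ATAC-seq peaks of all 4 libraries. The Hes5 peak lay 141 kb away with 5 TSS between, and the Neurod1 peak 36.4 kb downstream of its TSS with none between.

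The Myt1l peak of ChIP-Hyp-Imm was the nearest, in an intron 4972 bp after the TSS at chr12:29533224-29533410, with a fold of 5.67 and a −log10 q of 3.78, which ranked it 476 of 612. It overlapped an ATAC-seq peak of Norm-Sen at 4973 bp with a −log10 q of 3.91, and no ATAC-seq peak of Hyp-Imm, Hyp-Pro or Norm-Pro. None of these ChIP-seq peaks held the Tfcp2l1 motif in the 200 bp around the summit, with up to 2 mismatches allowed. The share of all ChIP-seq peaks that hold the motif is not given here. The lack of a match therefore cannot be read as particular to these genes.

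The label of the cells was checked at the promoters of marker genes. Among 10 fibroblast markers, Col1a2, Fn1, Vim and Twist1 had a peak at the TSS in all 4 libraries and Col3a1, Pdgfra and Prrx1 in none. Of the defining markers of other cell types examined, Myod1 and Myog of muscle, Ptprc and Gata1 of blood, Pecam1 of endothelium, Krt8 of epithelium and Sox10 of Schwann cells had none in any library, while Kdr of endothelium had one in all 4.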

How the data were processed

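The ATAC-seq reads were aligned by the authors with Bowtie2 to GRCm38 (mm10), read starts were shifted to the Tn5 cutting site, and MACS2 was run on each library with an FDR threshold of 0.05. The deposited ChIP-seq peaks were made with Bowtie and MACS2. No source used here names their build, and GRCm38 was assumed for each ChIP-seq distance, overlap and motif. The fold is the deposited ratio of read pileup to local background at a peak's summit. The −log10 p and −log10 q were also deposited as MACS2 gave them, q adjusted within a library, and the deposited score is 10 times −log10 q in nearly all peaks and was not used. Since q depends on depth, the ranks within a library are given for the strongest members, and other −log10 q values describe their own library.

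Peaks were joined to GENCODE vM21 protein-coding genes by an overlap of 1 bp with Python 3.11.15 and numpy 2.4.6. A peak at the TSS overlaps 1 kb on either side of the start of the gene record, and ChIP-seq peaks were counted within 200 kb. Equal numbers were 37770 ATAC-seq and 393 ChIP-seq peaks per library by −log10 q. Sequences were read from the RefSeq GRCm38.p6 assembly, and 403 tRNA genes came from its annotation. The members and lists were chosen with earlier results of these data known, and every member is named. Genes were described at more length mainly when they had a peak at the TSS, an RE1-like site or a ChIP-seq peak. Not every peak or RE1-like site is given. The RE1-like sites of Tubb3, Dcx, Rbfox3 and Elavl3 were left out, and none of them lay in an ATAC-seq peak. The overlap count and the motif search were tested on simulated data. The alternatives were other thresholds, windows and flanks, the summit, other transcripts, no tRNA peaks and the conditions of the file names. Leaving out peaks at other genes' TSS and the split by CpG content were chosen after seeing the data. Values of some genes in the lists of cofactors and cell markers are not reported here.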

Additional observations from a re-analysis of the deposited data

Results flagged for a closer look

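The number of the 33 genes with a peak in the gene or within 5 kb differed in opposite directions between the later and the proliferating library at the 2 oxygen levels. In 20% oxygen it was higher by 4 in Norm-Sen (27) than in Norm-Pro (23), and in 3% oxygen the difference of Hyp-Imm (16) from Hyp-Pro (24) was -8. Of all genes, 71.5% in Norm-Sen and 73.4% in Norm-Pro, and 56.3% in Hyp-Imm and 67.3% in Hyp-Pro, had such a peak, so that the share was lower in the later library at both oxygen levels. With an equal number of peaks the differences for the 33 genes were 4 and -7. For genes with a peak at the TSS the differences were -2 and -6 (0 and -5 with an equal number of peaks), and for the number of peaks 0 and -28 (11 and -14), so that other counts over the 33 genes went in opposite directions only for the number of peaks at equal numbers. By file name the counts were 16 in Norm-Sen and 24 in Norm-Pro, and 23 in Hyp-Imm and 27 in Hyp-Pro, so that both were then lower at the later time. With 1 library per condition the difference was not tested.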

How the results depend on the processing

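Of 138 values of 22 counts under the alternatives, 98 stayed within 1.5 times the main count and 40 did not. At a −log10 q of at least 3, genes with a peak at the TSS were 3 in Hyp-Imm and 7 in Norm-Pro, peaks 16 in Hyp-Imm and 37 in Norm-Pro, and TSS peaks of 1 library alone 0 (Hyp-Imm, not Norm-Sen), 3 (Norm-Sen, not Norm-Pro), 0 (Hyp-Imm, not Hyp-Pro), 5 (Hyp-Pro, not Norm-Pro) and 1 (Norm-Pro, not Hyp-Pro). With equal numbers they were 7 genes in Norm-Pro, 38 peaks in Norm-Sen and 27 in Norm-Pro, and 3 (Norm-Sen, not Hyp-Imm), 2 (Norm-Sen, not Norm-Pro), 5 (Hyp-Pro, not Norm-Pro) and 1 (Norm-Pro, not Hyp-Pro). Within 0.5 kb, 3 genes in Hyp-Imm had a TSS peak and 0 had one in Hyp-Imm and not in Norm-Sen or in Hyp-Pro. By summits 0 genes were in Norm-Sen and not in Norm-Pro. With any transcript's TSS, 14 genes in Norm-Sen had a peak, 10 of them not in Hyp-Imm and 5 not in Norm-Pro. A flank of 20 kb gave 26 genes and 48 peaks in Hyp-Imm and 97 peaks in Norm-Pro. With the conditions of the file names, 11 genes had a TSS peak in Hyp-Imm, 16 had a peak within 5 kb in Norm-Sen, peaks were 62 in Hyp-Imm and 29 in Norm-Sen, and genes in 1 library alone were 7 (Hyp-Imm, not Norm-Sen), 2 (Norm-Sen, not Hyp-Imm), 2 (Norm-Sen, not Norm-Pro), 8 (Norm-Pro, not Norm-Sen), 1 (Hyp-Pro, not Hyp-Imm) and 6 (Norm-Pro, not Hyp-Pro). ChIP-seq peaks within 1 Mb of the TSS were found for 13 genes in ChIP-Hyp-Imm and 8 in ChIP-Norm-Sen, within 50 kb for 0 in ChIP-Norm-Sen, and without tRNA genes for 1 in ChIP-Norm-Sen. The cause of these moves was not tested.

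No paired analysis was possible because each condition had 1 library and the labels carry no replicate numbers. The background derived from the fold values, which rests on a minority of the peaks, was lowest in Hyp-Imm. A missing peak there says only that none was called at the depth of this library. Rest, Rcor1 and Map2 kept a peak at the TSS in all 4 libraries with an equal number of peaks.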
